A study of Mus musculus with 24 samples.

Results

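The chromatin regulator families are the genes whose symbols in the authors' deposited table begin with Kdm, Chd, Arid, Brd, Smarc, Hdac, Setd, Mll, Cbx, Dnmt, Ezh, Suz, Ncoa or Ncor. This rule found 305 of the table's 14634 Argonaute 2 (AGO2) peaks, in 64 of 4165 genes. It goes by symbol alone and takes in some genes that encode no chromatin protein. A further 2 genes with these prefixes were left out, so the counts and shares of chromatin regulator peaks below do not cover these prefixes in full. A peak is a stretch of a messenger RNA's 3' untranslated region (3' UTR) at which reads of AGO2-bound RNA pile up. All groups were C57BL/6 mouse CD4+ T cells, isolated with CD4 beads from spleen and lymph nodes and kept for 4 days in IL-2 (20 U/mL) with anti-CD3 and anti-CD28 (1 µg/mL). Cells of 12 wild-type samples and 12 samples lacking miR-155 (miR-155 KO), labelled as biological replicates, were used for HITS-CLIP, in which bound RNA is crosslinked to AGO2, immunoprecipitated with a rabbit antibody to an AGO2 peptide, and sequenced. In each genotype 6 libraries carried 3' linker 1 and 6 carried 3' linker 2. The table pools the libraries of a genotype, so every read value below is 1 scaled, pooled value per genotype, without an error between replicates. Where a pair of read values is given, wild type stands first.

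AGO2 holds a microRNA whose seed, bases 2 to 8, pairs with matching sites in 3' UTRs, and the messenger RNA is then less stable or less translated. Chromatin regulators write, read or remove marks on histones and DNA, or move nucleosomes, and thereby help set which genes a T cell uses as it divides and takes on a helper fate. miR-155 is induced when lymphocytes are activated and is known to act on several messenger RNAs of this kind, of which Jarid2, a partner of Polycomb repressive complex 2, is a well-known case. CLIP reads follow both how many copies of a transcript a cell holds and how much AGO2 sits on each copy. These cannot be told apart here, nor can fewer cells and less RNA per cell.

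Summed over all peaks of the table, the scaled reads were 371088 (wild type) and 374126 (knockout). Of 13 T cell markers, 9 had a peak, Cd4 and Cd3e among them, with 7366 wild-type reads and 9325 knockout reads. Of 6 B cell markers, only Cd22 had a peak, with 10.5 and 1.83 reads. None of 7 myeloid, 5 CD8 and NK cell, or 4 erythroid and platelet markers was listed with a peak.

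The sequences below are the microRNA that the knockout lacks and the peak segments of chromatin regulator genes that match its seed. The seed stands in capitals in the mature microRNA, taken from RefSeq (GRCm38.p6), and the matching bases stand in capitals in the segments. The segments are the DNA sense of the transcript, 5′ to 3′. Their positions are on GRCm38, from exact matches of the deposited sequences to an annotation of that build.
miR-155-5p: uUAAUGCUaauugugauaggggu
Setd8 peak 3, chr5:124461435-124461459, plus strand: tcctgaaactGCATTAAttctttat
Chd8 peak 1, chr14:52198163-52198187, minus strand: cttccccttgGCATTAAtaaattta
Kdm2a peak 12, chr19:4316364-4316387, minus strand: tgacacattgGCATTAttttgggt
Cbx5 peak 8, chr15:103192935-103192955, minus strand: gtgttgtgagGCATTAcagat
Kdm3a peak 2, chr6:71589158-71589181, minus strand: cataggactgGCATTAtatagcag
Kdm4a peak 1, chr4:118136983-118137006, minus strand: gaaaaccggtGCATTAccttgtcc

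All 6 segments lie in annotated 3' UTRs. The first 2 hold a 7mer-A1 site, that is GCATTA followed by A, and the other 4 hold the 6 bases GCATTA alone. None of the 305 peaks held the longer matches AGCATTA or AGCATTAA. A 7-nt or 8-nt miR-155 site was thus present in 2 of 305 chromatin regulator peaks (0.656%), against 265 of all 14634 peaks (1.81%). The 6-base match alone was present in 4 (1.31%), against 102 of all peaks (0.697%). Peaks of the 2 genes left out are not among the 305, and these shares could differ with them included.

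No chromatin regulator peak differed between the genotypes past the threshold, an adjusted p of 0.05 (Benjamini-Hochberg, all 14634 peaks) applied to the p-values of the authors' deposited table. Lower reads in the knockout were called in 0 of 305 peaks, against 0.574% of all peaks (84 of 14634), and higher reads in 0 of 305, against 0.0273% (4 of 14634). If the peaks are taken as independent, a count of 0 in 305 allows a share of up to 0.984% by counting error alone. That is above both shares of the whole table. The peaks lie in 64 genes and need not be independent. The 2 genes with these prefixes that were left out are not counted, so the 0 holds for these 64 genes alone. What spread between libraries the deposited p-values reflect is unknown. Before adjustment, p-values of the authors' deposited table were under 0.05 for 5 peaks with more reads in wild type (1.64%, against 2.72% of all peaks). The same held for 3 peaks with more reads in the knockout (0.984%, against 1.48% of all peaks). The share of the chromatin regulator peaks past the threshold before adjustment was thus near or below that of the whole table in both directions.

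**Figure D1:**
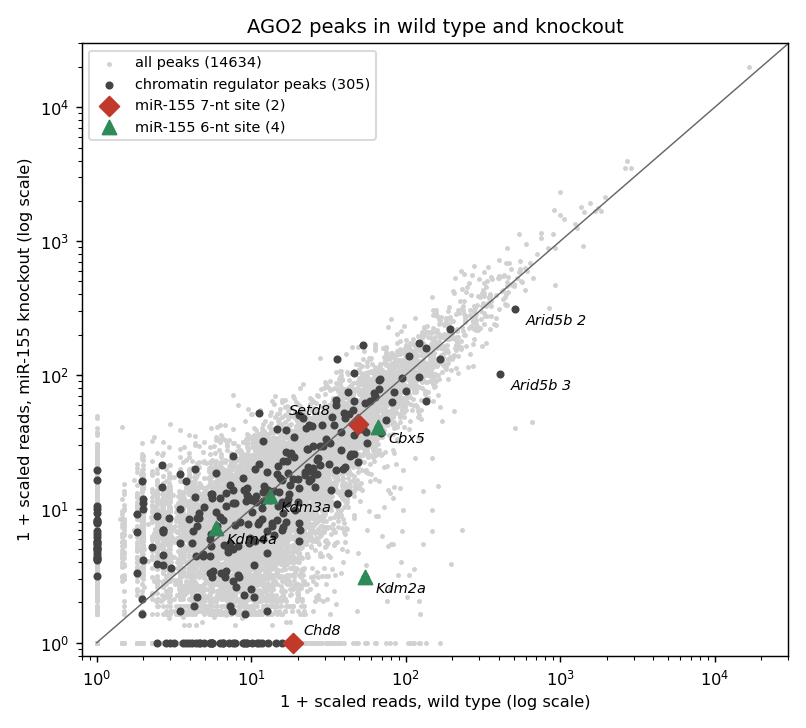
Scaled reads plus 1 of each AGO2 peak in wild type (x axis) and in the miR-155 knockout (y axis), both on log scales, with the 305 chromatin regulator peaks over all 14634 peaks and a line of equal reads. The chromatin regulator peaks lie on both sides of the line, 155 with more reads in wild type and 150 with more in the knockout, and those with a miR-155 match are marked.

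The peak nearest to the threshold was Kdm2a peak 12. Kdm2a is a JmjC-domain demethylase of histone H3 lysine 36 that binds CpG islands. Its peak 12 had 53.5 scaled wild-type reads and 2.09 knockout reads, and the authors' deposited table gives a log2 ratio of 4.14 and p = 0.000474, which becomes 0.068 after Benjamini-Hochberg adjustment over all peaks. This is the segment with the 6-base match GCATTA printed above. When the adjustment ran over peaks with at least 10 scaled reads alone, the adjusted p (Benjamini-Hochberg) was 0.046, and the peak then passed the threshold. The other 12 Kdm2a peaks summed to 233 wild-type reads and 194 knockout reads, a log2 ratio of 0.26.

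Of the genes with a 7-nt site, Chd8, a chromodomain helicase, had a single peak. Its 17.6 scaled wild-type reads stood against a listed 0 for the knockout (p = 0.00252 per the authors' deposited table, Benjamini-Hochberg adjusted p = 0.241). Setd8 (now Kmt5a), the enzyme that adds a single methyl group to histone H4 lysine 20, had its site in peak 3. That peak had 48.0 wild-type reads and 42.0 knockout reads (p = 0.54 in the authors' deposited table). The wild-type reads thus stood far above the knockout reads at the Chd8 site and close to them at the Setd8 site. Both segments hold the same 7 bases GCATTAA, neither peak was called, and the difference between them was not tested. Over the whole table the 104 peaks with a 7mer-A1 site as their longest match had a median deposited log2 ratio of 2.67, and 21 of them were called lower in the knockout.

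The other peaks with the 6-base match had reads in both genotypes. Cbx5 encodes HP1 alpha, which binds methylated histone H3 lysine 9, and its peak 8 had 65.0 wild-type reads and 40.0 knockout reads. In Kdm3a, which encodes a demethylase of histone H3 lysine 9, peak 2 had 12.1 and 11.5 reads. In Kdm4a, which encodes a demethylase of histone H3 lysines 9 and 36, the single peak had 4.88 and 6.19 reads. Among these 4 peaks, only that of Kdm2a stood apart from equal reads by more than 1 on the deposited log2 scale. The 102 peaks of the table with the 6-base match alone had a median deposited log2 ratio of 1.17, and 8 were called lower.

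Chromatin genes outside these prefixes were set beside them. A list of 85 further chromatin gene symbols was made with earlier results of these data known. It holds both the older and the newer symbol of some genes, and Utx, an older symbol of Kdm6a. Of the listed genes, 48 had 291 peaks. Of those peaks, 7 in 6 genes were called lower in the knockout (2.41%, against 0.574% of all peaks) and none was called higher. Each of the 7 matched miR-155 over 7 or 8 nt, as did 10 of the 291 peaks (3.44%). Jarid2 peak 2 had 129 scaled wild-type reads and 4.46 knockout reads, and Hat1 peak 2, in the messenger RNA of a histone acetyltransferase, had 147 and 5.78. Rcor1, which encodes the CoREST corepressor, had 2 called peaks, with 106 and 84.5 reads in wild type and both listed at 0 in the knockout. The methyltransferase genes Ash1l (peak 17) and Nsd1 (peak 9) had 111 and 25.04 reads in wild type and were likewise listed at 0. Jmjd1c, a relative of Kdm3a whose symbol falls outside the prefixes, had 33.9 and 2.20 reads at peak 1. The difference between the 2 sets of genes was not tested.

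Several of the most-read chromatin regulator peaks hold seed matches of other microRNAs that T cells express. The sequences below show the microRNAs and segments on which the following paragraphs turn, with the seed or its match in capitals. The miR-17 and miR-19 matches of Kdm2a share bases, and the capitals there mark the miR-17 match.
let-7a-5p: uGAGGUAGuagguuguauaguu
Cbx5 peak 8, chr15:103192952-103192977, minus strand: taatactgacCTACCTCAtggggtgt
miR-142a-3p: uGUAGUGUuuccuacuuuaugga
Mll1 peak 5, chr9:44806701-44806725, minus strand: aagttcaatgACACTACtgccctgg
Hdac4 peak 1, chr1:91929090-91929114, minus strand: agcaagagctCACTACAgaagtgtg
Setd7 peak 1, chr3:51521242-51521266, minus strand: tggatctatgCACTACAtttatctg
miR-30c-5p: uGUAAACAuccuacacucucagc
Kdm3a peak 1, chr6:71589469-71589494, minus strand: atatttctagTGTTTACAgacactaa
Arid5b peak 6, chr10:68095638-68095663, minus strand: gtcaagttatTGTTTACAaattgaag
miR-148a-3p: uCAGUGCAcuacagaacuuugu
Dnmt1 peak 1, chr9:20907483-20907508, minus strand: gagccccacgTGCACTGAtgttttta
miR-29a-3p: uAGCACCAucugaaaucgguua
Dnmt3a peak 2, chr12:3908562-3908586, plus strand: gacttcataaTGGTGCTttcaaaac
Ezh2 peak 1, chr6:47544522-47544546, minus strand: tggagtggagTGGTGCTgaagcctc
miR-17-5p: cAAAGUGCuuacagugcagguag
Kdm2a peak 3, chr19:4317813-4317838, minus strand: agagctttttGCACTTTAgaaaaaaa
Ezh1 peak 1, chr11:101191155-101191180, minus strand: taaatttcttGCACTTTAaagtcctg

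A 7-nt or 8-nt match to at least 1 of 18 microRNA families (miR-155 included) was present in 124 chromatin regulator peaks (40.7%), against 37.4% of all peaks. A match is a description of the letters in a peak and does not show which microRNA was bound. Matches to 2 or more families were present in 13 peaks (4.26%, against 5.41% of all peaks). Among the 29 chromatin regulator peaks with at least 100 scaled reads, 20 held a match (69.0%), against 54.5% of the 1403 such peaks in the table. The other 9 include both large Arid5b peaks, described below, peak 1 of Smarcc2, which holds 6 bases that match miR-142-3p, and peak 1 of Kdm5b.

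The family with the most matches was miR-30, which pairs with TGTTTAC, in 15 peaks of 13 genes (4.92%, against 2.92% of all peaks). The most-read of these is Kdm3a peak 1, with 121 scaled wild-type reads and 94.8 knockout reads. Further 8-base miR-30 matches lie in Setd7 peak 6 (61.8 and 72.3 reads), Arid5b peak 6 (62.3 and 67.1) and Arid4a peak 5 (51.0 and 40.8). Other miR-30 peaks lay further from equal reads: Chd1 peak 3 had 44.99 and 102 reads, Chd1 peak 5 had 19.4 and 4.78, and Smarcd2 peak 1 had 14.9 and 6.00. Of the 15 peaks, 9 lay within 1.5-fold of equal reads, wild type was more than 1.5-fold higher at 3 and the knockout at 3.

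Matches to let-7 (10 peaks, 3.28% against 1.93%) and to miR-26 (10 peaks, 3.28% against 2.04%) also took a larger share of chromatin regulator peaks than of all peaks. Matches to miR-142-3p took a smaller share (4 peaks, 1.31% against 2.94%), as did those to miR-92 (5 peaks, 1.64% against 2.77%). None of these shares was tested. The 4 peaks with a miR-142-3p match nevertheless held 5.64% of the chromatin regulator reads, because Mll1 peak 5, Hdac4 peak 1 and Setd7 peak 1 are among the 10 most-read peaks.

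**Figure D2:**
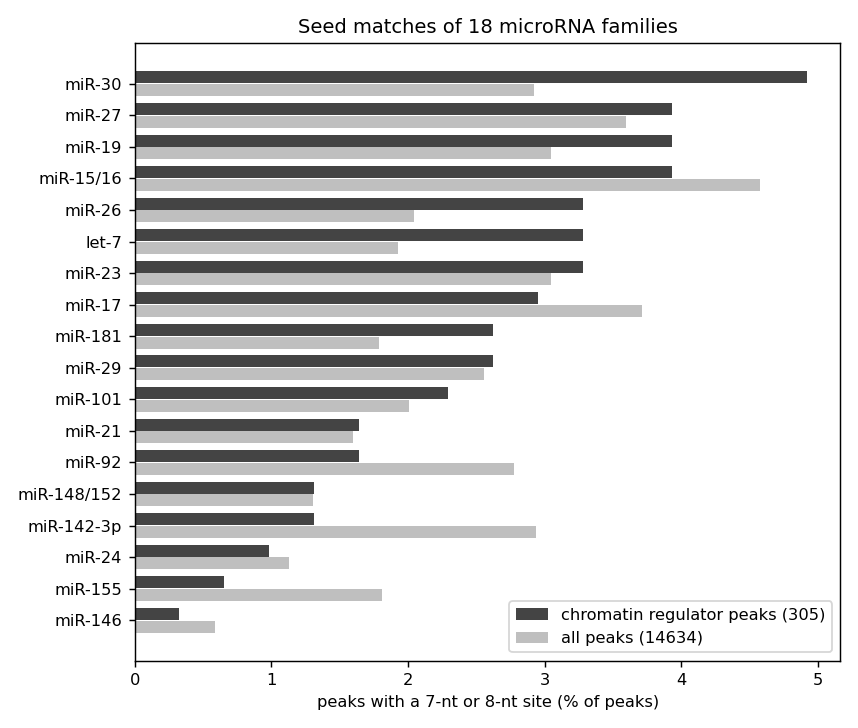
Share of peaks (percent) with a 7-nt or 8-nt match to each of 18 microRNA families, in the 305 chromatin regulator peaks (dark bars) and in all 14634 peaks (light bars). The dark bar is the longer for miR-30 (4.92% against 2.92%) and the shorter for miR-142-3p (1.31% against 2.94%) and miR-155 (0.656% against 1.81%).

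In total the chromatin regulator peaks had 6562 scaled wild-type reads and 6283 knockout reads, which is 1.77% and 1.68% of all reads and a log2 ratio of 0.06. Without Arid5b the sums were 5555 and 5780 and the log2 ratio was -0.06. The median deposited log2 ratio was 0.04 (quartiles -0.82 and 0.87), against 0.20 over all peaks (quartiles -0.61 and 1.33). Over the 244 peaks with reads in both genotypes it was -0.01, against 0.07 over all such peaks. More reads in wild type were found in 155 peaks (50.8%), against 56.4% of all peaks. The knockout was listed at 0 in 35 peaks (11.5%, against 16.6% of all peaks) and wild type in 26 (8.52%, against 7.87%).

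Reads were concentrated in few genes. The 5 genes with the most reads held 37.2% of the chromatin regulator reads and the 20 with the most held 80.3%, while 18 genes had under 20 scaled reads. A gene had 4.77 peaks on average, against 3.51 in the whole table and 6.06 in the other chromatin genes. Mll1 had the most, 28, and 19 genes had 1. Of the 39 genes with at least 50 reads, 5 had summed reads more than 1.5-fold higher in wild type (12.8%, against 18.1% of all 1968 such genes). The same number, 5, were more than 1.5-fold higher in the knockout (12.8%, against 12.6%), and 29 lay within 1.5-fold.

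**Figure D3:**
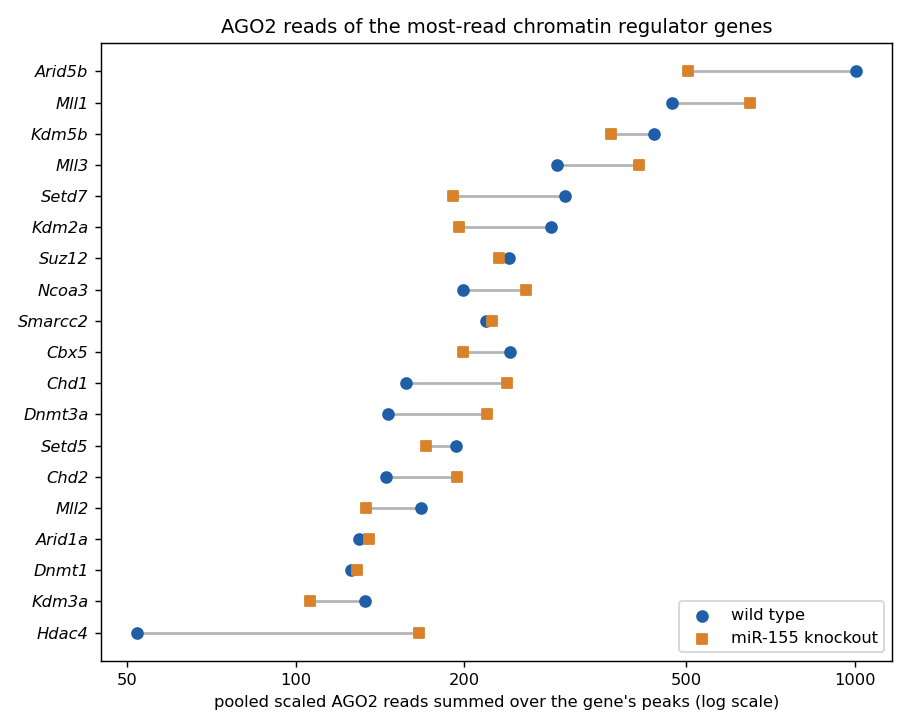
Scaled AGO2 reads summed over the peaks of 19 of the 20 most-read chromatin regulator genes (x axis, log scale), with 1 pooled point for wild type and 1 for the miR-155 knockout. Arid5b stands furthest to the right in wild type at 1008 reads against 503 in the knockout, and Hdac4 has the widest gap in the other direction, 52.0 against 166.

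Arid5b, an AT-rich interaction domain protein that recruits the demethylase PHF2, was the most-read of the genes. Its reads summed to 1008 (wild type) and 503 (knockout), a log2 ratio of 1.00 on the scale of summed reads. Per 100 nt of peak it also ranked first, with 756 scaled reads over both genotypes, ahead of Hdac4 (624) and Smarcc2 (414). Most of these reads lay in 2 neighbouring peaks. Peak 2, at nucleotides 412 to 439 of the 3' UTR, had 511 wild-type reads and 312 knockout reads (p = 0.0118 per the authors' deposited table, Benjamini-Hochberg adjusted p = 0.626). Peak 3, at nucleotides 456 to 476, had 404 and 102 reads (p = 0.201 per the authors' deposited table). Without peak 3 the gene's sums were 604 and 402.

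Neither of these large peaks held a 7-nt or 8-nt match to any of the 18 families, miR-155 included. Peak 2 held 6 bases that match miR-92, shown in capitals below beside its microRNA.
miR-92a-3p: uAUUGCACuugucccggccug
Arid5b peak 2, chr10:68096065-68096088, minus strand: gttcaatcaaTGCAATgtatagta
Peak 6 of Arid5b, with the 8-base miR-30 match, had nearly equal reads, 62.3 (wild type) and 67.1 (knockout). In number of reads the genotypes thus differed most at peaks 2 and 3 and little at peak 6 of the same 3' UTR, and the difference between the peaks was not tested.

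The histone demethylase genes (Kdm) had 41 peaks in 10 genes, with 1001 wild-type reads and 837 knockout reads. Wild type had the more reads in 28 of these peaks (68.3%, against 56.4% of all peaks) and the knockout in 13, and none passed the test. Kdm5b, which removes methyl groups from histone H3 lysine 4, led with 438 and 367 reads over 13 peaks. Its peak 1, starting 11 nt into the 3' UTR, had 165 and 131 reads, and its peak 9, with a miR-29 match, had 93.6 and 93.7. Kdm5b peak 4 was listed at 0 in the knockout with 11.8 reads in wild type (p = 0.0445 in the authors' deposited table, adjusted p = 1.00 by Benjamini-Hochberg).

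Kdm2a had 287 wild-type reads and 196 knockout reads, and its peak 3, with overlapping miR-17 and miR-19 matches, had 45.3 and 24.6. The pair of demethylases that act on the Polycomb mark, trimethylated histone H3 lysine 27, leaned in opposite directions. Kdm6a (UTX) had 56.9 wild-type reads and 21.7 knockout reads, and each of its 4 peaks had more reads in wild type. Kdm6b (JMJD3) had 63.5 and 103, with the largest gap at its peak 3, 19.3 and 49.1. The smallest p among the 7 peaks of these genes in the authors' deposited table was 0.0919, for Kdm6b peak 3. The opposite directions are therefore values of the pooled reads and not called differences.

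Among the histone methyltransferase genes, the 3 Mll genes that encode the large histone H3 lysine 4 methyltransferases had 933 wild-type reads and 1195 knockout reads, a log2 ratio of -0.36. Mll1 (Kmt2a) had 472 and 649.7 reads and Mll3 (Kmt2c) had 294 and 411. Mll2 (Kmt2d), in contrast, had 168 (wild type) and 134 (knockout). Mll1 peak 5, with the miR-142-3p match, had 122 and 172 reads. Mll1 peak 19 had 35.1 and 130.3 (p = 0.551 per the authors' deposited table). A log2 ratio of -1.86 at a well-read peak thus came with a large p in the authors' deposited table.

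Mll1 peak 15 was listed at 0 in wild type and had 18.4 reads in the knockout (p = 0.00823 per the authors' deposited table, Benjamini-Hochberg adjusted p = 0.55). Of the 10 Mll3 peaks, 8 had more reads in the knockout. Mll3 peak 3 was the most-read, with 104 and 138 reads. Mll3 peak 9 had 13.8 and 38.3 (p = 0.0543 in the authors' deposited table). The Mllt genes share the prefix as fusion partners of Mll1 in leukaemia. Their 9 peaks had 25.2 and 57.1 reads in all.

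The Setd genes leaned towards wild type, with 714 and 561 reads. Setd7, a histone H3 lysine 4 monomethyltransferase that also modifies other proteins, accounted for most of this with 303 and 192. Its peak 1, with the miR-142-3p match, had 135 and 63.3 reads (p = 0.331 in the authors' deposited table), whereas peak 6, with the miR-30 match, had 61.8 and 72.3. Setd5 had 193 and 171 reads over 10 peaks.

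**Figure D4:**
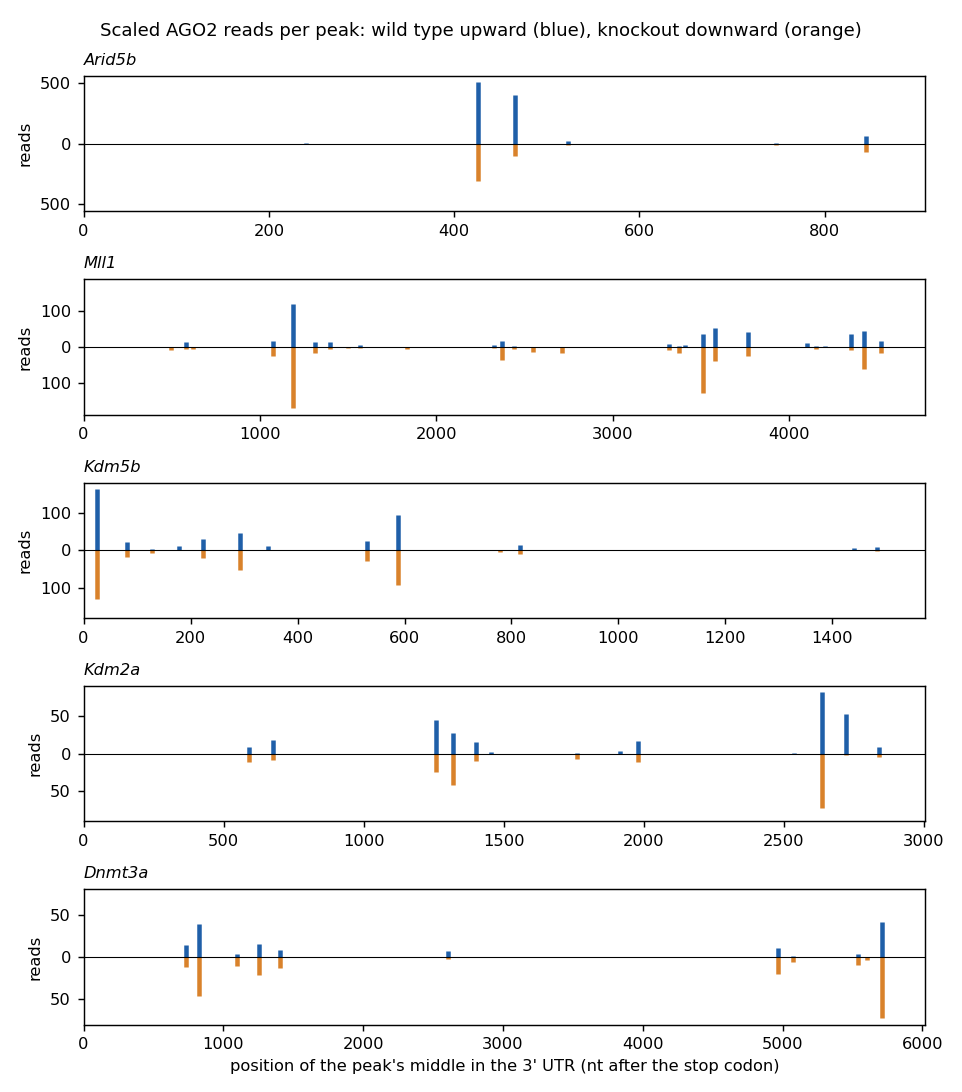
Scaled AGO2 reads of each peak along the 3' UTRs of Arid5b, Mll1, Kdm5b, Kdm2a and Dnmt3a, with position in nt after the stop codon on the x axis, pooled wild-type reads drawn upward and pooled knockout reads downward. In Arid5b the reads stand in 2 neighbouring peaks with 511 and 404 reads in wild type and 312 and 102 in the knockout, while Mll1 has 28 peaks along its 3' UTR.

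The chromatin remodeller genes had values in both directions within families. The Chd genes, ATP-dependent remodellers with chromodomains, had 372 wild-type reads and 472 knockout reads. Chd1, which binds methylated histone H3 lysine 4, had 157 and 239, and its peak 3, with a miR-30 match, had 44.99 and 102. Chd2 had 145 and 195, while Chd9, with a single peak, had 51.4 and 38.4. Chd2 peak 1, with a miR-15/16 match, had 11.0 and 31.0 reads, the smallest p among the chromatin regulator peaks with more reads in the knockout (p = 0.00187 in the authors' deposited table, adjusted p = 0.194 by Benjamini-Hochberg).

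The Smarc genes, subunits of SWI/SNF and related remodellers, had 342 and 327 reads. Smarcc2, a core subunit of the BAF complex, accounted for 219 and 225 of them. Its peak 1 had 135 and 159 reads and its peak 2, with a miR-15/16 match, had 80.6 and 61.9, so its 2 large peaks leaned opposite ways. Arid1a, the DNA-binding BAF subunit, had 130 and 135 reads, and Arid2, of the related PBAF complex, had 58.8 and 32.8. Of 14 listed BAF and PBAF subunits with the prefixes of the rule, 9 had peaks, with 484 wild-type reads and 461 knockout reads, a log2 ratio of 0.07. Subunits outside the prefixes, such as Pbrm1, are not in these sums.

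The Arid genes without Arid5b had 408 and 354 reads. Arid4a, a retinoblastoma-binding protein of the SIN3 corepressor, had 94.4 and 64.0, with more reads in wild type at each of its 5 peaks. Arid3a held 2 peaks with contrary values. Its peak 1, with a let-7 match, had 14.8 wild-type reads and was listed at 0 for the knockout (p = 0.0362 in the authors' deposited table). Its peak 3, with a miR-23 match, had 1.64 and 20.4 reads (p = 0.00369 in the authors' deposited table, adjusted p = 0.305 by Benjamini-Hochberg). The low peaks leaned in opposite directions, and over all 6 peaks the Arid3a sums were close, 83.7 and 78.0.

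Polycomb repressive complex 2 methylates histone H3 lysine 27, and 3 of its 4 core genes had peaks, summing to 335 wild-type reads and 306 knockout reads. Suz12, the subunit that holds the complex together, had 241 and 231 over 10 peaks, 5 of which leaned each way. Ezh1 and Ezh2, its alternative catalytic subunits, leaned in opposite directions in the pooled reads, and no peak of either was called. In the authors' deposited table p was 0.671 for the Ezh1 peak, and 0.709 and 0.890 for the Ezh2 peaks. Ezh1 had 73.0 and 45.1 reads in a single peak with a miR-17 match, and Ezh2 had 20.8 and 30.04 in 2 peaks, of which peak 1 held a miR-29 match.

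Cbx proteins read methylated histones. Cbx5 had 241 and 199 reads over 13 peaks, and both its peaks with let-7 matches had more reads in wild type: 67.9 against 36.1 at peak 6 and 65.0 against 40.0 at peak 8. Peak 8 is also the one with the 6-base miR-155 match. The let-7 and miR-155 matches lie at separate places in that peak.

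Of the 2 DNA methyltransferase genes with peaks, Dnmt3a had more reads in the knockout and Dnmt1 had nearly equal reads (log2 ratio of -0.04). Dnmt3a, which sets new DNA methylation, had 146 (wild type) and 219.8 (knockout), and 7 of its 8 peaks with at least 10 scaled reads leaned that way. Its most-read peak, 11, with a miR-26 match, had 41.6 and 73.8 reads, and its miR-29 matches lie in peak 2 (39.7 and 46.8) and peak 4 (16.05 and 21.7). The smallest p among its peaks in the authors' deposited table was 0.126, so none passed even before adjustment. Dnmt1, which copies methylation after replication, had 125 and 129 reads. Its peak 1, with the 8-base miR-148 match, had 99.2 and 74.4, and its other 3 peaks had more reads in the knockout. No Dnmt3b peak was listed.

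The histone deacetylase genes had 3 peaks, 1 in each of Hdac4, Hdac3 and Hdac7, all with more reads in the knockout. Hdac4, a class IIa deacetylase that represses MEF2-driven genes, had the widest genotype gap in this direction among genes with at least 50 reads, 52.0 (wild type) and 166 (knockout), a log2 ratio of -1.68 on the scale of summed reads. Its peak, with a miR-142-3p match, had p = 0.0579 in the authors' deposited table. Without Hdac4 the sums were 44.7 and 62.8. The same miR-142-3p class of match lies in Setd7 peak 1, where wild type had more reads, and in Hdac4 peak 1, where the knockout had more.

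The bromodomain genes, whose products bind acetylated lysine, had 71.0 and 92.3 reads. Brd8, part of an acetyltransferase complex, led with 39.4 and 49.9, and Brd7, of the PBAF complex, had 17.8 and 33.3 in a single peak with a miR-27 match. Among the coregulators of nuclear receptors, Ncoa3, a coactivator, had 199 wild-type reads and 258 knockout reads over 15 peaks. Its peak 6 had 4.91 and 17.4 reads (p = 0.0543 in the authors' deposited table). The corepressor Ncor1 had 30.5 and 19.4 reads in 2 peaks.

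**Figure D5:**
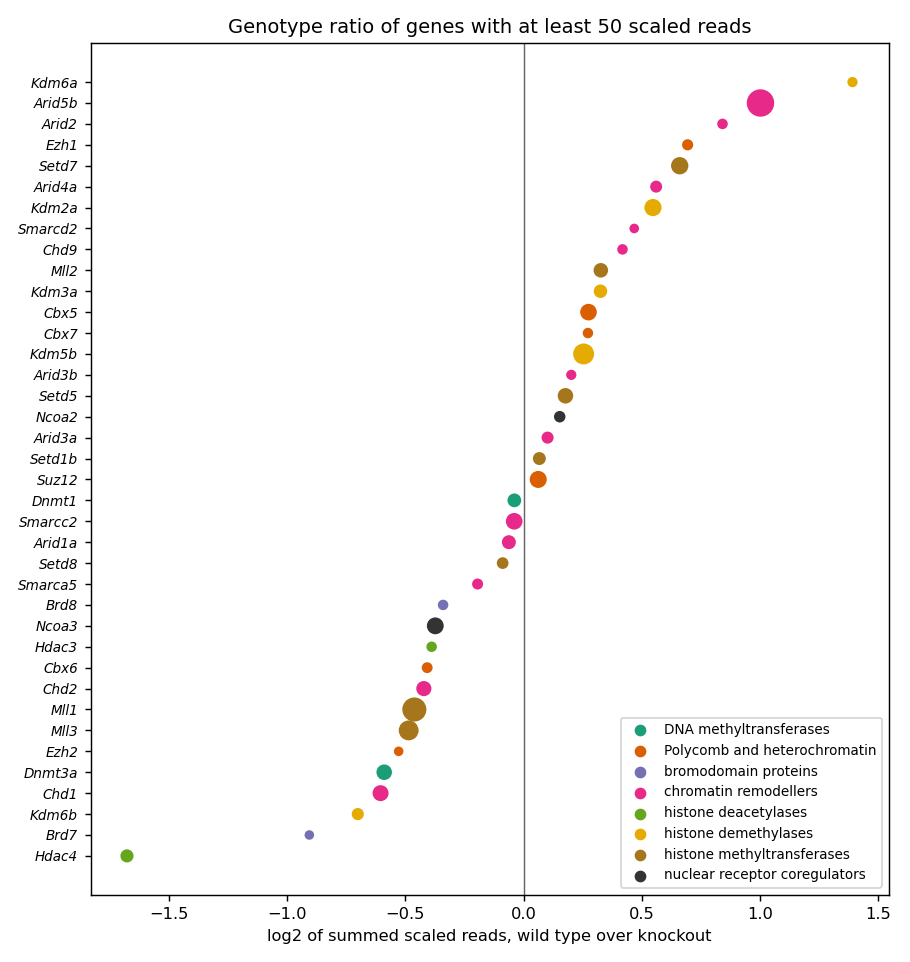
Log2 ratio of summed scaled reads, wild type over knockout, of 38 of the 39 chromatin regulator genes with at least 50 reads. There is 1 point per gene, its area growing with its reads. Its colour gives the role assigned to its prefix as a whole, which need not be that of the gene. Kdm6a (1.39) and Arid5b (1.00) stand at the wild-type end and Hdac4 (-1.68) and Brd7 (-0.91) at the knockout end, with 28 of the plotted genes within 1.5-fold of equal reads.

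The median start of chromatin regulator peaks in the 3' UTR was nucleotide 1051, against 880 over all peaks. In the 48 other chromatin genes it was further still, at 1376. Chromatin regulator peaks were of like length to all peaks (median 38 nt against 39). Their median GC content was 38.9% against 36.8%. The Cbx peaks began furthest from the stop codon of the families with 3 or more genes, at a median of nucleotide 2512, and those of the Brd genes nearest, at 244. Median reads per peak were 18.1 (quartiles 8.32 and 44.7), against 17.0 over all peaks (quartiles 7.90 and 40.9).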

How the data were processed

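Per the file headers, the authors' deposited table gives for each 3' UTR peak the log2 reads of each genotype, their log2 ratio, a p-value for differential binding, and the start and end in the 3' UTR. The submitters' processing notes name Bowtie 0.12.7 and mm9. Not given in the sources used here were the peak caller, the scaling and the test behind the p-value. A log2 value of 0 was read as no reads, so scaled reads were obtained as the power of 2 less 1. The ratio equals the difference of the columns to within 6e-05.

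The table pools libraries, so the planned fits per library with the linker as a term were not possible. Library depth is unknown, and no counting interval is given for the read values. p-values were adjusted by Benjamini-Hochberg over all 14634 peaks (threshold 0.05). Peak sequences with 6 nt on each side were searched for 7-nt and 8-nt seed matches (8mer, 7mer-m8, 7mer-A1) of 18 of 19 listed microRNA families (miR-150 had no reference entry) and, for each family without one in a peak, for its 6-base match. Counts use 6-base matches for miR-155 alone. The search was tested on simulated data with 8mer miR-155 sites alone, and not for the shorter classes or the other families. Genome positions are exact matches to GENCODE transcripts on GRCm38, not the authors' mm9, for 302 of 305 peaks, 300 of them in annotated 3' UTRs.

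The genes and lists were chosen with earlier results of these data known. The text names peaks called or holding a 7-nt or 8-nt miR-155 site, the 20 most-read genes, the most-read gene of each prefix, the 5 highest and 5 lowest ratios among genes with at least 50 reads, the 10 most-read peaks, the 5 smallest p-values in each direction, and called genes of the other chromatin list. Of these, 1 gene is not reported here. Others were named after their values were seen. Python 3.11.15, NumPy 2.4.6, pandas 2.3.3, statsmodels 0.14.6 and matplotlib 3.10.9 were used.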

Additional observations from a re-analysis of the deposited data

How the results depend on the processing

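No paired analysis was possible because the table pools the libraries of each genotype, and leaving out replicates was not possible for the same reason. The count of chromatin regulator peaks lower in the knockout rose from 0 to 1, Kdm2a peak 12, at an adjusted p threshold of 0.1 and when peaks with at least 10 scaled reads alone were adjusted. It stayed 0 at a threshold of 0.01, with a Bonferroni adjustment and over peaks with reads in both genotypes, and the count of higher peaks was 0 in all 5 alternatives. The median log2 ratio moved from 0.04 to -0.000235 over peaks with at least 10 reads, -0.0109 over peaks with reads in both genotypes, -0.0115 there without the pseudocount, and -0.15 when centred on all peaks. The log2 ratio of summed reads moved from 0.06 to -0.0573 without Arid5b, an alternative chosen after seeing the data. Without the genes that encode no chromatin protein, the log2 ratio of summed reads was 0.0604 and the median log2 ratio was 0.0349. The count of peaks with a miR-155 site was 0 for 8mer and 7mer-m8 sites and 6 with 6mers added. Scaling to equal totals adds 0.0118 to every log2 ratio. Of the summed-read ratios of the named genes and the families, 26 of 38 moved by more than 0.1 (log2) when the most-read peak was left out, and 7 of 43 with a minimum of 10 reads. Without the most-read peak, Kdm6a went from 1.39 to 2.76, Dnmt1 from -0.04 to -1.05 and the Hdac genes from -1.24 to -0.49, and the sign changed for 3 (the Ezh genes to -0.53, Arid1a to 0.14, Smarcc2 to 0.36). With a minimum of 10 reads, Ncor1 went from 0.66 to 0.20 and Kdm6a to 1.02, and the sign changed for 1 (Setd8, to 0.02). The cause was not tested. Most peaks have few reads, and a peak listed at 0 gives no fold.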
